A study of Mus musculus with 16 samples.

Results

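The 8 B3AR-Tg mice of a study of pressure overload were ordered by an index of 2 genes of the myocyte load response, and this order is the subject here. The index of an animal is the mean of log2(CPM + 1) of Nppa and Myh7, where CPM is a gene's count relative to the library total, scaled with TMM factors (trimmed mean of M values). The animals were chosen by genotype, 8 of the 16 in the study, and the 4 highest and 4 lowest were selected on the measured index itself, so the levels of Nppa and Myh7 and the split into 4 and 4 are given as a description with no test. RNA came from isolated adult ventricular myocytes of B3AR-Tg mice and WT littermates, 8 animals of each. Every animal of both genotypes had undergone TAC (transverse aortic constriction, a surgical narrowing of the aorta) 9 weeks before collection, so no animal without surgery is in the data. The species of the transgene, the promoter that drives it and the number of founder lines are not given in the sources used here, and neither is any pressure or heart weight of an animal.

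Nppa encodes atrial natriuretic peptide and Nppb brain natriuretic peptide, hormones that lower blood pressure and that ventricular myocytes make when they are stretched. Myh7 encodes the slow beta myosin heavy chain, which the adult mouse ventricle largely replaces by the fast alpha chain of Myh6. Under pressure overload, myocytes return to a fetal pattern in which Nppa, Nppb, Myh7 and skeletal actin (Acta1) go up together, and stretch-sensing proteins such as Ankrd1 and Xirp2 follow.

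Nppb, the closest relative of Nppa in this response, is also its neighbour on chromosome 4. The starts of these genes lie 14822 bases apart on the same strand in GRCm38.p6. The 250 bases upstream of each start are shown as background, as given by RefSeq on GRCm38.p6. They are a reference sequence, not read from these animals, so they hold no information on differences among them. The authors' own build was GRCm39, per the submitters' processing notes, and no coordinate was converted. The Nppa window is chr4:148000472-148000721 and the Nppb window chr4:147985650-147985899, both on the plus strand, 5′ to 3′. Capitals mark matches to the TATA box TATAAA, the GATA site TGATAA and the MCAT element CATTCC, searched on both strands.

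Nppa: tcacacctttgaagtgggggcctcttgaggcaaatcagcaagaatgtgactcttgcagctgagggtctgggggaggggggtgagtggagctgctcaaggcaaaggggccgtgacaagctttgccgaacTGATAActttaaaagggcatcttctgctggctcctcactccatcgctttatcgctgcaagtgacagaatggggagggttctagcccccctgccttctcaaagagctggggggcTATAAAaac

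Nppb: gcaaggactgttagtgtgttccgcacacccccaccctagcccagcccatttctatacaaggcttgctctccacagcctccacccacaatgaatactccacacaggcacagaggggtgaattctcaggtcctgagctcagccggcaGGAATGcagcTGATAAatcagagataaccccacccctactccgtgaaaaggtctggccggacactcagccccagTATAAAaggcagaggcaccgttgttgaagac

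Both windows held 1 TATAAA, 9 bases upstream of the Nppa start and 31 bases upstream of the Nppb start, counted from the first base of the match. Each also held 1 TGATAA, at 122 bases for Nppa and 95 bases for Nppb. Only this form of the GATA site was searched, so other forms are not marked or counted. The reverse complement of the MCAT element, GGAATG, was matched in the Nppb window at 105 bases and not in the Nppa window. No match overlapped another, and neither window held the serum response element known as the CArG box in its consensus form. Among 32851 windows of the same length in the RefSeq table, TATAAA was in 12.4%, TGATAA in 7.94%, CATTCC in 12.6% and the CArG box in 1.47%. A match of letters does not show that a factor binds there.

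Totals of the 8 libraries were between 5985335 and 14365864 counts, with the highest in replicate 1 and the lowest in replicate 4. A relation of the index to the library total did not pass (Pearson r = -0.220, exact permutation p = 0.589; Spearman rho = -0.548, exact permutation p = 0.171), with a Pearson r of -0.508 without the 2 animals farthest from the median index (replicates 7 and 1). Nor did the number of genes detected, the mitochondrial share of the counts (20.0% to 23.6%) or the share of the single most counted gene Gm20594 pass an exact permutation test against the index (4 measures, smallest adjusted p = 0.519). The number of genes detected had an r of -0.359 over all 8 animals and -0.892 over the 6 between the ends. All 15 ventricular myocyte markers were counted in every B3AR-Tg library. As a check for a library deposited more than once, pairs of these libraries were compared, and the chi-square per gene was 9.56 to 58.1, so no pair agreed within sampling noise.

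The index was 8.51 in B3AR-Tg replicate 7, 7.19 in replicate 3, 7.00 in replicate 5 and 6.94 in replicate 4, the high-index animals. It was 6.93 in replicate 2, 6.83 in replicate 6, 6.46 in replicate 8 and 5.85 in replicate 1, the low-index animals. In all lists that follow the animals stand in this order. Replicate 7 lay 1.32 above the next animal, while the 6 animals between the ends lay within 0.728 of each other. Replicate 4, just inside the high-index set, and replicate 2, just outside it, differed by 0.00585, so the border of the 2 sets ran through animals with nearly the same value. The mean was 6.96 ± 0.752 (SD, n = 8) in B3AR-Tg and 9.61 ± 1.42 (SD, n = 8) in WT, and 1 of the 8 B3AR-Tg animals (replicate 7) lay above the lowest WT animal at 7.97.

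Nppa set most of the order. Its level was 120.1, 50.2, 22.1 and 24.3 CPM in the high-index and 24.2, 20.8, 15.2 and 5.75 CPM in the low-index animals, a 20.9-fold range. Myh7 was at 1091, 415, 713 and 590.3 CPM in the high-index and 589, 592, 478 and 489 CPM in the low-index animals, a 2.63-fold range. Both genes were highest in replicate 7. Replicate 3, second for Nppa, was lowest for Myh7. Over the 8 animals the log2 levels of the 2 genes had a Pearson r of 0.596 and a Spearman rho of 0.286. Without replicate 7 the Pearson r was -0.0420, and without replicates 7 and 1 it was -0.472, so their agreement rested on replicate 7. The index had a Pearson r of 0.974 with Nppa and 0.764 with Myh7, and these values follow from how it is built.

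**Figure D1:**
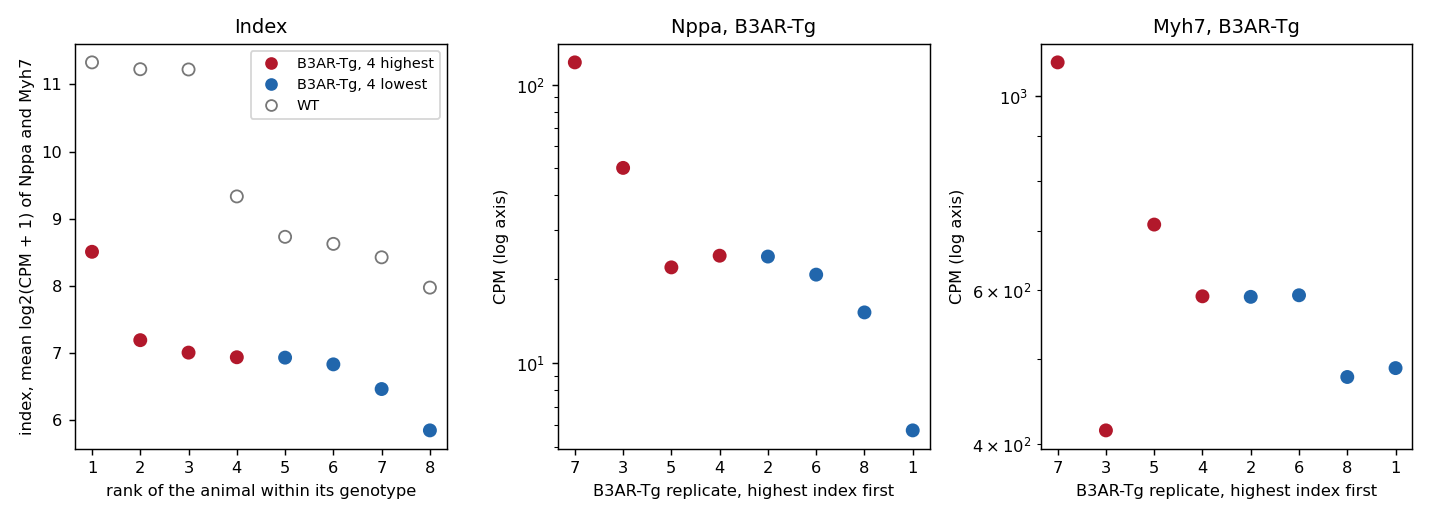
The left panel plots the index of each animal (log2 scale) against its rank within its genotype, with the 4 high-index B3AR-Tg animals in red, the 4 low-index ones in blue and WT animals as open circles. The other panels plot Nppa and Myh7 (CPM, log axis) per B3AR-Tg animal in index order: replicate 7 is highest for both, and replicate 3 is second for Nppa and lowest for Myh7.

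The other genes of the load response were examined to see whether they follow the same order. Over all 8 animals they did not do so as a group, and the outcome turned on replicates 1 and 7. Nppb was at 372, 540.4, 171 and 295 CPM in the high-index and 274, 168, 142 and 662 CPM in the low-index animals. Its highest level was in replicate 1, the animal with the lowest Nppa, and the 2 sets of animals overlapped. Its slope on the index, the log2 change per unit of the index in edgeR's quasi-likelihood fit, was -0.12 (SE 0.27). The Pearson r of Nppb with the index was 0.00420 over all 8 animals (exact permutation p = 0.993) and 0.774 without replicates 7 and 1.

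Acta1 was at 1852, 772, 294 and 127 CPM in the high-index and 632, 883, 154 and 727 CPM in the low-index animals. Replicate 7 was highest and replicate 4, also a high-index animal, was lowest. Ankrd1, a titin-associated protein of the stretch response, was at 3059, 2187, 1032 and 1163 CPM in the high-index and 1282, 1629.8, 1128 and 2270.2 CPM in the low-index animals. Here replicates 7 and 1, the ends of the index, were the 2 highest animals. Xirp2, an actin-binding protein of the intercalated disc, was at 4016, 1954, 1855 and 1639 CPM in the high-index and 1740.2, 2952, 1875 and 4449.9 CPM in the low-index animals, and again replicates 1 and 7 were highest. Slopes on the index were 0.65 (SE 0.33) for Acta1, 0.27 (SE 0.18) for Ankrd1 and 0.03 (SE 0.19) for Xirp2, and none of the 3 passed the test (edgeR adjusted p = 1.000 for each after rounding).

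**Figure D2:**
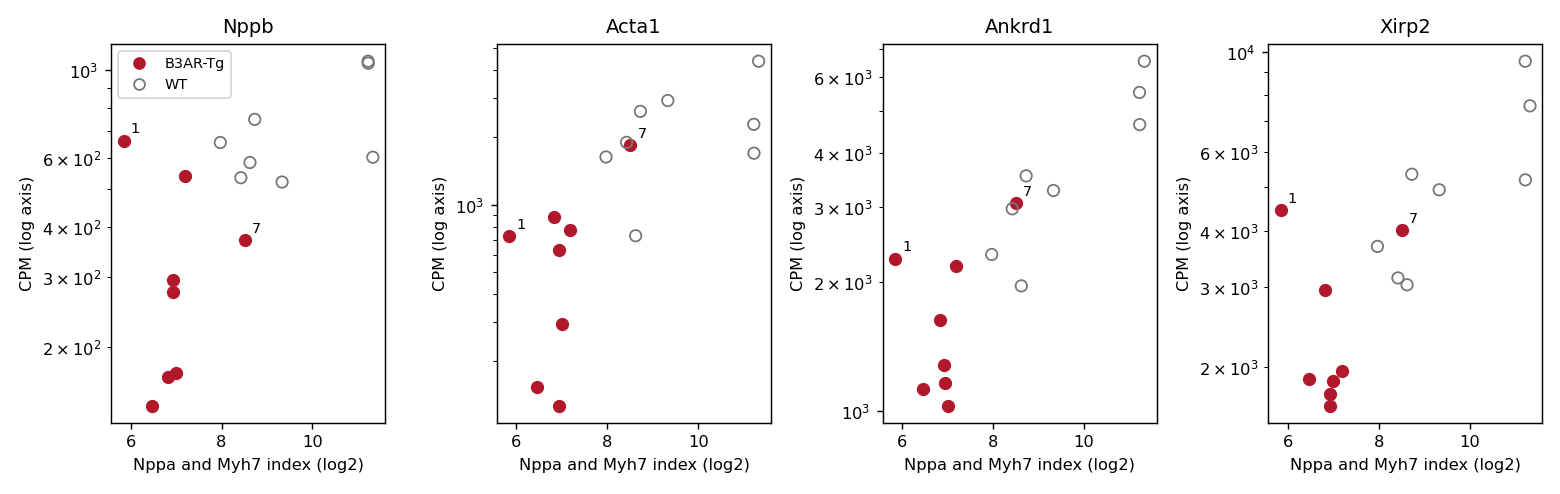
Each panel plots 1 gene (Nppb, Acta1, Ankrd1, Xirp2; CPM on a log axis) against the Nppa and Myh7 index (log2) for 8 B3AR-Tg animals (red) and 8 WT animals (open circles), with B3AR-Tg replicates 1 and 7 marked. Replicate 1, lowest on the index, is highest of the B3AR-Tg animals for Nppb and Xirp2 and second for Ankrd1.

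Of 23 load and stretch markers other than Nppa and Myh7, 20 were counted often enough to be tested (a mean of at least 10 counts over the 8 animals). In B3AR-Tg, 8 had a positive and 12 a negative slope on the index, with a median of -0.03, against a median of 0.00 over all 11119 genes tested. None passed at an adjusted p under 0.05. At an unadjusted p under 0.05, 3 had a positive slope, namely Cilp, Mybpc2 and Thbs4, and 3 a negative one, Xirp1 and Rcan1 among them. Over all genes those shares were 1.79% for higher and 2.89% for lower with the index, and 49.2% of all slopes were positive. These shares are the background for the counts of every list below. Cilp, a matrix protein of pressure-loaded hearts, was at 5.44, 2.29, 0.275 and 0.973 CPM in the high-index and 0.176, 1.27, 0.160 and 0.535 CPM in the low-index animals, or 70 counts in replicate 7 and 2 to 22 in the others. It reached the mean of 10 counts needed for the test only through replicate 7, the animal highest on the index. Xirp1, the relative of Xirp2, was at 257, 310.5, 309 and 497 CPM in the high-index and 340.4, 233, 283 and 1618 CPM in the low-index animals. Replicate 1 lay far above the 7 other animals, which overlapped between the sets. The number of positive slopes was 15 of 20 without replicate 1, 4 of 20 without replicate 7, and 8 of 20 without any other single animal. Without replicate 1 the median slope was 0.53, with 9 positive and 0 negative at an unadjusted p under 0.05. Without replicate 7 it was -0.29, with 0 positive and 6 negative.

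In WT, all 20 markers had a positive slope on the same index, with a median of 0.33. The WT animals fell into 2 sets on the index, 3 between 11.2 and 11.3 and 5 between 7.97 and 9.33. Whether a slope differed between the genotypes was tested by the interaction of index and genotype over 11062 genes, and 0% passed at an adjusted p under 0.05 in edgeR. At an unadjusted p under 0.05 there were 528 genes, and DESeq2 called 5, limma voom 0. Without replicate 7 of both genotypes edgeR called 21 genes, 19 of them with the lower slope in B3AR-Tg, Xirp1, Xirp2 and Ccn2 of this list among them. The 20 positive slopes in WT against 8 in B3AR-Tg are therefore a count whose difference was not called for any single marker with all animals.

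A second index was built from Nppb, Acta1, Ankrd1 and Xirp2, genes that did not choose the animals. Over the 8 B3AR-Tg animals it had a Pearson r of 0.314 (exact permutation p = 0.480) and a Spearman rho of 0.286 (exact permutation p = 0.501) with the Nppa and Myh7 index. This value rested on the animals at the ends, as values without single animals, computed after the data were seen, show. Without replicate 1, which was lowest on the first index and second highest on the other, r was 0.824 (exact permutation p = 0.0119, or 0.119 adjusted over the 10 such correlations computed). Without replicate 7, highest on both, r was -0.343. Without both it was 0.627 over 6 animals, and without any other single animal 0.215 to 0.344. Whether the order is one of load is thus not settled by these markers, and it is called the Nppa and Myh7 index here. Against the second index 0 of 11115 genes passed in edgeR and 604 had an unadjusted p under 0.05. The smallest adjusted p was 0.0674, for the water channel gene Aqp8, which was named after its value was seen.

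Across the whole transcriptome, no gene's relation to the index passed the test in edgeR. Of 11119 genes tested with edgeR's quasi-likelihood F test, 0 passed at a Benjamini-Hochberg adjusted p under 0.05 (0%), and the smallest adjusted p was 0.380. At an unadjusted p under 0.05 there were 520 genes, 199 higher with the index and 321 lower. Exact permutation over all 40320 orderings of the animals left 0 genes after adjustment, with 446 genes at an unadjusted p under 0.05 by Pearson's r and 361 by Spearman's rho. DESeq2 called 9 genes and limma voom 0. Without replicate 7 edgeR called 2 genes, Otud1 and the pseudogene Tpt1-ps3, the latter counted in 1 animal only. The median absolute slope was 0.0925 and the median standard error 0.134 log2 per unit of the index, so for a typical gene the error exceeded the slope.

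The 10 genes with the smallest p among those with a positive slope did not pass, with adjusted p-values from 0.380 to 0.624 (edgeR). All 10 were highest in replicate 7. A choice by the smallest p of a slope favours genes that are extreme in the end animals, so this is no separate result. Masp1, a serine protease of the lectin pathway of complement, was at 9.95, 5.42, 3.94 and 3.24 CPM in the high-index and 3.61, 3.61, 3.05 and 2.61 CPM in the low-index animals, with a slope of 0.78 (SE 0.13). Its level kept near the order, with a Pearson r of 0.949 over 8 animals and 0.807 without replicates 7 and 1. Fxyd6, a regulator of the sodium pump, was at 15.6, 9.80, 9.72 and 9.24 CPM in the high-index and 7.49, 7.81, 6.81 and 5.95 CPM in the low-index animals, and the sets did not overlap (slope 0.55, SE 0.10). Lmo2, a transcriptional adaptor of blood and endothelial cells, was at 14.1, 11.2, 6.87 and 7.30 CPM in the high-index and 6.26, 6.06, 5.69 and 6.01 CPM in the low-index animals, also without overlap (slope 0.54, SE 0.13). For Fxyd6 the r without replicates 7 and 1 was 0.847 and for Lmo2 0.785.

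Other genes with positive slopes stood apart in replicate 7. Dpysl3, a cytoskeletal protein of growing axons, was at 38.8, 14.1, 10.9 and 13.6 CPM in the high-index and 12.4, 17.0, 17.4 and 12.2 CPM in the low-index animals. Its r was 0.757 over all animals and -0.634 without replicates 7 and 1. Slc24a2, a potassium-dependent sodium and calcium exchanger, was at 16.1, 2.71, 1.92 and 1.14 CPM in the high-index and 1.32, 6.45, 2.32 and 1.60 CPM in the low-index animals, with replicate 6 second. Kif5a, a kinesin of neurons, was at 4.04, 1.04, 0.367 and 0.324 CPM in the high-index and 0.529, 0.586, 0.0801 and 0.401 CPM in the low-index animals, or 52 counts in replicate 7 and at most 10 in any other animal. It reached the mean of 10 counts needed for the test only through replicate 7, so its slope is no separate support. Mbp, a protein of myelin, had 59 counts in replicate 7 and 0 to 5 in the others, while the Schwann cell marker Sox10 had 0 counts in replicate 7. Summed over 5 Schwann cell markers the level was 8.16 CPM in replicate 7 and 0.195 to 1.94 in the other B3AR-Tg animals. The pericyte proteoglycan Cspg4 was at 19.8 CPM in replicate 7 and 5.20 to 9.38 in the others. The summed mural cell markers were 486 CPM there and 433 to 578 in the others, but most of this sum was Abcc9 (414 CPM in replicate 7). Among the other tested mural markers, Pdgfrb, Notch3 and Kcnj8 were also highest in replicate 7, at 4.35, 2.95 and 2.80 CPM. Abcc9, Rgs5 and Myh11 were not. In RNA from many cells, fewer cells of a type and less RNA per cell cannot be told apart, and the part of these cell types in the result was not tested.

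The 10 genes with the smallest p among those with a negative slope did not pass either (adjusted p from 0.380 to 0.616, edgeR). All 10 were highest in replicate 1, and 9 of the 10 were lowest in replicate 7, which again goes with how they were chosen. Adamts1, a secreted protease that cleaves matrix proteoglycans, was at 68.6, 86.7, 133 and 113 CPM in the high-index and 101, 136, 123 and 248 CPM in the low-index animals, with a slope of -0.65 (SE 0.11). Nt5e, the enzyme CD73 that makes adenosine from AMP, was at 7.85, 11.8, 12.1 and 14.6 CPM in the high-index and 17.8, 17.8, 13.5 and 29.3 CPM in the low-index animals (slope -0.67, SE 0.13). Akt1, a kinase of insulin and growth factor signalling, was at 47.8, 68.7, 79.0 and 75.7 CPM in the high-index and 81.4, 82.2, 83.8 and 93.0 CPM in the low-index animals (slope -0.37, SE 0.08). Akt1 was the gene of the 10 that kept closest to the order, with no overlap of the sets, a rho of -0.976 and a Pearson r of -0.962, and -0.790 without replicates 7 and 1.

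Other genes of the 10 were highest in replicate 1 as well. Ell2, an elongation factor of RNA polymerase II, was at 22.4, 34.4, 34.1 and 32.8 CPM in the high-index and 27.7, 39.8, 34.2 and 76.7 CPM in the low-index animals. Atf3, a stress-induced transcription factor, was at 104, 141, 236 and 266 CPM in the high-index and 188, 131, 267 and 339 CPM in the low-index animals. Myl9, a light chain of smooth muscle myosin, was at 4.74, 3.96, 14.0 and 13.0 CPM in the high-index and 10.1, 13.8, 7.69 and 35.3 CPM in the low-index animals. The relation was weaker among the 6 animals between replicates 7 and 1, where r was -0.130 for Ell2, -0.452 for Atf3 and -0.209 for Myl9. Over the 10 negative genes the median r was -0.855 with all 8 animals and -0.385 with those 6. Over the 10 positive genes it was 0.860 and 0.522.

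**Figure D3:**
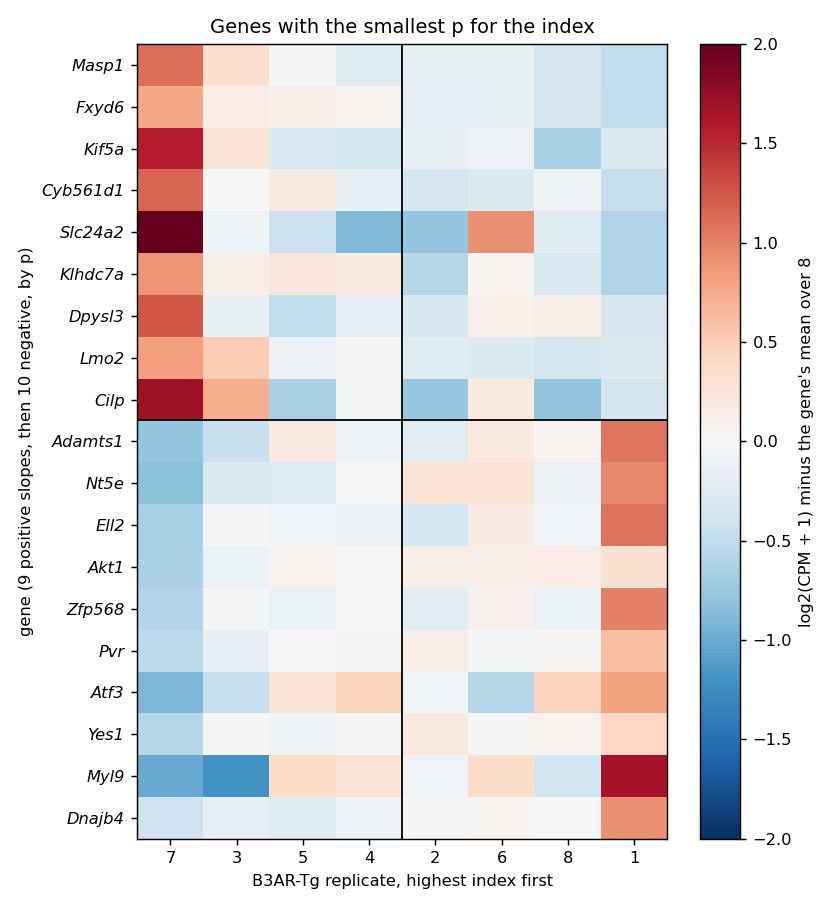
Rows are 9 of the 10 genes with the smallest p for a positive slope and the 10 for a negative slope, none of which passed, and columns are the 8 B3AR-Tg animals in index order. Colour is log2(CPM + 1) minus the gene's mean over the 8 animals, and the strongest colours stand in the outer columns: all 9 positive genes are highest in replicate 7 and all 10 negative genes are highest in replicate 1. A choice of genes by slope favours this pattern.

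Markers of atrial myocytes, in which Nppa is at home in the adult heart, had positive slopes. Of 10 atrial markers 5 were tested, and all 5 had a positive slope, with a median of 0.96 against 0.00 over all genes. None passed, and 2 had an unadjusted p under 0.05. Myl4, the atrial light chain, was at 25.6, 29.4, 13.7 and 20.6 CPM in the high-index and 13.0, 8.50, 14.4 and 1.14 CPM in the low-index animals, with a slope of 1.10 (SE 0.39) and an adjusted p of 0.920 in edgeR. Myl7, the other atrial light chain, was at 7.07, 13.4, 8.34 and 5.35 CPM in the high-index and 5.55, 3.42, 8.90 and 0.802 CPM in the low-index animals (slope 0.63, SE 0.43). Sln, sarcolipin, the atrial inhibitor of the calcium pump, was at 2.88, 5.42, 2.29 and 4.86 CPM in the high-index and 0.617, 1.27, 2.24 and 0.0668 CPM in the low-index animals, from 52 counts in replicate 3 to 1 count in replicate 1. Its sets did not overlap, but only by the narrow gap between replicate 5 (25 counts) and replicate 8 (28 counts). Over all genes, the high-index animals lay above the low-index ones without overlap for 1.15%. Stard10, also on this list, was at 11.7 to 18.8 CPM with a slope of 0.02 (SE 0.14). Summed over the list the level was 52.2, 69.9, 41.8 and 48.0 CPM in the high-index and 38.6, 27.2, 39.7 and 15.1 CPM in the low-index animals, so the sets did not overlap in the sum. Among the gene lists, only this sum and that of the ventricular markers were without overlap. Both separations would be lost if replicates 4 and 2, nearly tied on the index, were exchanged. The atrial genes Bmp10, Nr2f1 and Hamp had 0 to 3 counts in every B3AR-Tg library. The part of atrial cells in the index was not tested. Without replicate 1 the median slope was 0.27 with 4 of 5 positive, and without replicate 7 it was 1.97 with 5 of 5 positive. In WT the median slope of these 5 genes on the same index was -0.01, with 2 of 5 positive.

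Genes of the heat shock response had mostly negative slopes, and replicate 1 stood apart. Of 19 chaperone genes 3 had a positive and 16 a negative slope (median -0.24), and 0 passed, with 7 at an unadjusted p under 0.05, all negative. Hspa1a, the inducible Hsp70, was at 22.3, 52.8, 50.2 and 112 CPM in the high-index and 30.6, 44.1, 26.8 and 314 CPM in the low-index animals. Its co-chaperone Dnaja1 was at 29.8, 60.7, 47.8 and 70.4 CPM in the high-index and 48.2, 51.1, 38.6 and 124 CPM in the low-index animals, and Dnajb4, another of the Hsp40 family, at 182, 215, 205 and 229 CPM in the high-index and 236, 248, 241 and 456 CPM in the low-index animals. Summed, the list was at 6058, 7412, 6468 and 6683 CPM in the high-index and 7113, 6430.4, 5823 and 10401 CPM in the low-index animals. The 2 sets overlapped and replicate 1 stood highest. Without replicate 1 the median slope was -0.10 with 8 positive and 11 negative. Without replicate 7 it was -0.37 with 2 positive and 17 negative, 8 of these at an unadjusted p under 0.05. The median r of the list was -0.433 with all 8 animals and 0.436 without replicates 7 and 1. Without these 2 animals r was 0.504 for Hspa1a, 0.695 for Dnaja1 and -0.650 for Dnajb4.

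Immediate early genes, which answer to stimulation within minutes and to cell isolation, had 2 positive and 22 negative slopes among 24 tested (median -0.28), and 0 passed, with 3 at an unadjusted p under 0.05. Their summed level was 735, 917, 1498 and 1343 CPM in the high-index and 897, 884, 997 and 1576 CPM in the low-index animals. The highest animal was again replicate 1 and the lowest replicate 7, but the high-index replicates 5 and 4 came next to the highest. Without replicate 7 the slopes were 12 positive and 12 negative. The part of handling during isolation was not tested.

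Genes of energy metabolism had mostly negative slopes, and among the B3AR-Tg animals these came with replicate 7. Of 43 genes of fatty acid use, 37 had a negative slope (median -0.13), none passed, and 8 had an unadjusted p under 0.05, all negative. Over all genes 49.2% of slopes were positive, and 2.89% of genes were lower with the index at that unadjusted p. Eci2, an enzyme of unsaturated fatty acid oxidation, was at 108, 149.6, 141 and 127 CPM in the high-index and 156, 151, 149 and 201 CPM in the low-index animals. Pdk4, the kinase that turns off pyruvate oxidation when fat is used, was at 319, 764, 610.3 and 744 CPM in the high-index and 373, 349, 529.5 and 1276 CPM in the low-index animals. Decr1, another enzyme of unsaturated fatty acids, was at 266, 404, 457 and 400.2 CPM in the high-index and 497, 380.4, 473 and 419 CPM in the low-index animals. Replicate 7 was the lowest animal for each of these 3. Summed over the 43 genes the level was 15803, 19110.1, 20188 and 18871 CPM in the high-index and 20678, 17705, 20068 and 20674 CPM in the low-index animals, so replicate 7 was lowest and the sets overlapped.

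The citric acid cycle (19 of 20 slopes negative, median -0.06) and the nuclear genes of the respiratory chain (37 of 42 negative, median -0.09) showed the same, with 0 passing in either list and 1 at an unadjusted p under 0.05 in each. Replicate 7 had the lowest sum in both, 10861 CPM for the cycle, where the other 7 animals spanned 11892 to 14467, and 20504 CPM for the chain, where they spanned 23306 to 29155. Without replicate 7 the slopes were 20 of 43 negative for fatty acid use, 9 of 20 for the cycle and 8 of 42 for the chain, so the direction turned or was lost without this 1 animal. In WT the median slopes of these lists on the same index were also negative, at -0.06, -0.06 and -0.09. Positive WT slopes numbered 7 for fatty acid use, 3 for the cycle and 2 for the chain.

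**Figure D4:**
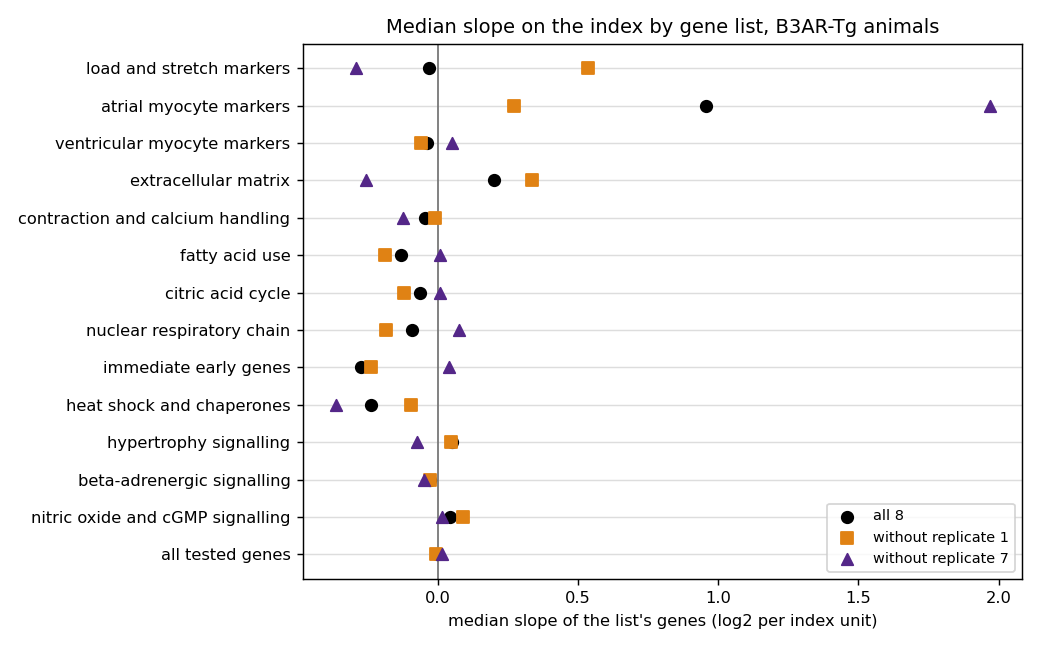
Points are the median slope on the index (log2 per index unit) of the tested genes of each list, over all 8 B3AR-Tg animals (black circles), without replicate 1 (orange squares) and without replicate 7 (purple triangles). Among others, the load markers, the matrix list, the 3 metabolic lists and the immediate early genes change sign when replicate 1 or 7 is left out, and atrial markers stay positive.

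Extracellular matrix genes had 21 positive and 6 negative slopes of 27 (median 0.20), with 0 passing, 2 positive and 1 negative at an unadjusted p under 0.05. Postn, periostin of activated fibroblasts, was at 20.1, 4.17, 2.93 and 6.49 CPM in the high-index and 0.970, 3.91, 3.21 and 4.14 CPM in the low-index animals, and replicate 7 stood alone. Fbn1, fibrillin, was at 10.8, 3.96, 3.57 and 7.78 CPM in the high-index and 2.20, 5.66, 3.69 and 3.81 CPM in the low-index animals. Col12a1, a collagen, was at 1.87, 3.34, 1.19 and 5.19 CPM in the high-index and 3.26, 3.71, 3.21 and 6.62 CPM in the low-index animals and highest in replicate 1. Without replicate 7 the matrix slopes were 6 positive and 21 negative. In WT 26 matrix slopes were positive, with a median of 0.34. The summed fibroblast markers were 16.5 to 56.0 CPM in the high-index animals and 19.9 to 54.7 CPM in the low-index ones, and the endothelial markers 133 to 279 and 77.5 to 149 CPM.

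Contractile genes were examined next. Myh6, the alpha myosin heavy chain, was at 18708, 17059, 23837 and 20556 CPM in the high-index and 22255, 19697, 20655 and 21598 CPM in the low-index animals (slope -0.08, SE 0.10), and Atp2a2, the calcium pump of the sarcoplasmic reticulum, at 6835, 7875, 7825 and 7531 CPM in the high-index and 8744, 7674, 8393 and 9125 CPM in the low-index animals (slope -0.15, SE 0.08). Neither passed the test. Replicates 7 and 3 were the 2 lowest for Myh6 and replicate 7 was lowest for Atp2a2, whose r was -0.863 over 8 animals and -0.353 without replicates 7 and 1. The summed ventricular myocyte markers were 96071, 90647, 101355 and 98444 CPM in the high-index and 108920.0, 110994, 105422 and 123013 CPM in the low-index animals, and here all 4 high-index animals lay below all 4 low-index ones. Titin (Ttn), the giant spring of the sarcomere and a member of this list, was at 35657, 25436, 35352 and 37426 CPM in the high-index and 36931, 45212, 40269.6 and 57227 CPM in the low-index animals. Ttn made up a large part of the summed level, and with Ttn taken out of the printed sums the sets overlapped. Taken singly, 0 of the 15 markers were without overlap between the sets. Of the 15 markers 11 had a negative slope (median -0.04), and 0 had an unadjusted p under 0.05. Without replicate 7 the slopes were 8 positive and 7 negative, and without replicate 1 they were 6 positive and 9 negative.

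Receptor genes were examined because all 8 animals carry a receptor transgene. Mouse Adrb3, the gene of the beta-3 adrenergic receptor for which the line is named, had 0 to 3 counts in each B3AR-Tg library, and a relation to the index was not detectable at this depth. Adgrb3, an adhesion receptor gene that differs between the genotypes, was at 37.7, 39.5, 51.5 and 40.1 CPM in the high-index and 47.7, 51.7, 57.9 and 40.9 CPM in the low-index animals, against at most 0.292 CPM in WT, with a slope of -0.13 (SE 0.11) on the index. Replicate 7, highest on the index, was the lowest animal for Adgrb3, and the sets overlapped. The r was -0.402 over 8 animals (exact permutation p = 0.353) and -0.779 without replicates 7 and 1. Adrb1, the main beta receptor of the mouse heart, was at 2.50 to 5.08 CPM (slope -0.08, SE 0.19). Of 28 genes of beta-adrenergic signalling 13 had a positive and 15 a negative slope (median -0.03), 0 passed and 1 had an unadjusted p under 0.05. This split is near that of all genes, where 49.2% of slopes were positive. In the nitric oxide and cGMP pathway, through which natriuretic peptides and the beta-3 receptor signal, 10 of 13 slopes were positive (median 0.04). Npr3, the receptor that clears natriuretic peptides, had the smallest p there (slope 0.45, SE 0.14, edgeR adjusted p = 0.843) and was at 16.9, 10.2, 8.71 and 12.5 CPM in the high-index and 7.49, 13.9, 8.17 and 7.15 CPM in the low-index animals.

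**Figure D5:**
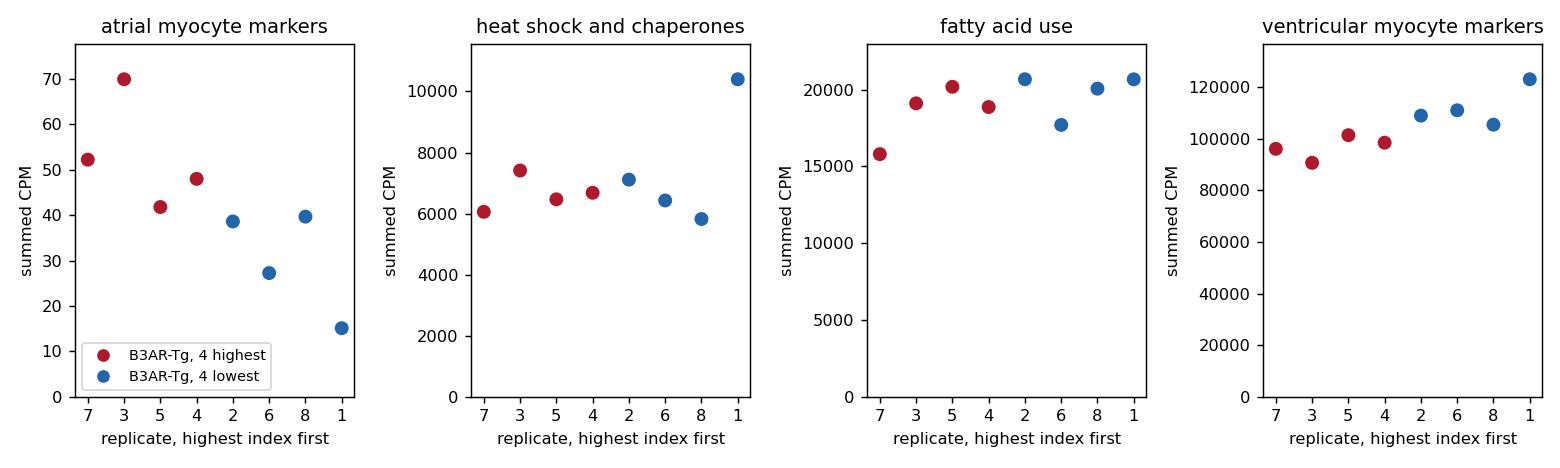
Each panel plots the summed CPM of a gene list per B3AR-Tg animal in index order, on a linear axis from 0, with the 4 high-index animals in red and the 4 low-index ones in blue. Sums of atrial markers do not overlap between the sets (41.8 to 69.9 against 15.1 to 39.7 CPM). Sums of ventricular markers do not either, in the opposite direction, though 0 of the 15 ventricular markers did so singly and the sums overlap with Ttn taken out. The heat shock sum is highest in replicate 1 and the fatty acid sum lowest in replicate 7.

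The 2 sets of 4 animals, which use only the order, were compared by overlap. All 4 high-index animals lay above all 4 low-index ones for 128 of the 11119 genes (1.15%) and below them for 121 (1.09%). These counts are a description, since the 2 groups of animals were formed from measured levels, and 32 of the 249 genes also had an unadjusted p under 0.05. With this many genes, some would separate 4 from 4 animals under any order. A lack of overlap alone therefore does not tie a gene to the index. The 5 genes per direction with the largest difference of mean log2(CPM + 1), predicted genes and pseudogenes aside, were at a mean of 1.08 to 4.61 CPM, except Atp5g2 at 39.0 CPM. They include the atrial gene Sln, with a difference of 1.31. Cx3cl1, the chemokine fractalkine, was at 5.29, 4.38, 3.39 and 4.54 CPM in the high-index and 2.20, 1.17, 3.05 and 3.21 CPM in the low-index animals. Klhdc7a was at 8.55, 4.69, 5.04 and 4.86 CPM in the high-index and 2.47, 4.40, 3.21 and 2.41 CPM in the low-index animals. On the lower side, Glcci1, a gene induced by glucocorticoids, was at 5.83, 1.77, 0.825 and 4.22 CPM in the high-index and 5.91, 6.25, 5.93 and 6.15 CPM in the low-index animals, where replicates 3 and 5 were far below the others and replicates 7 and 4 close to the low-index animals. Tyms, thymidylate synthase, was at 3.19, 2.19, 2.57 and 3.41 CPM in the high-index and 4.94, 4.20, 4.89 and 6.48 CPM in the low-index animals. Atp5g2, a subunit of the ATP synthase ring, was at 19.5, 32.7, 31.9 and 27.6 CPM in the high-index and 57.9, 47.3, 47.1 and 48.3 CPM in the low-index animals, with the lowest level in replicate 7. Since replicates 4 and 2 had nearly the same index, a small shift would exchange them between the sets.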

How the data were processed

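The authors deposited whole-number counts per gene for each animal, with no normalization. Per the labels' protocols, myocytes were isolated by Langendorff perfusion and plated before RNA extraction, and stranded libraries were made after removal of ribosomal RNA. Salmon and GRCm39 are named in the submitters' processing notes with no version or role, so how fractional or shared reads became whole counts is unknown, and values of near-identical genes are uncertain. Genotype and replicate number come from the sample titles, which name separate animals as biological replicates.

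Libraries were scaled with TMM factors over all 16 animals. Genes with a mean count of at least 10 over the 8 B3AR-Tg animals, without Nppa and Myh7, were fitted on the index with edgeR 4.0.16 (limma 3.58.1, R 4.3.3). This quasi-likelihood F test is two-sided, adjusted by Benjamini-Hochberg over all genes, with a threshold of 0.05, and so is the interaction with genotype over the 16 animals. DESeq2 1.42.0, limma voom, exact permutation, other scalings, filters and indices were alternatives. The fits were first run on simulated counts with slopes of known size, and the outcome is not reported here. Pearson and Spearman p-values are exact and two-sided.

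Named genes were the 10 per direction with the smallest p, up to 3 members per gene list, fixed markers, the 5 smallest interaction p-values and the 5 largest differences per direction among genes without overlap. Mbp, Mybpc2, Thbs4, Rcan1, Decr1, Myl7, Stard10, Otud1, Tpt1-ps3, Ccn2 and Flnc were added after their values were seen. A few genes that these rules name are not reported here. The members, lists and tests were chosen with earlier results of these data known.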

Additional observations from a re-analysis of the deposited data

Results flagged for a closer look

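In the 8 B3AR-Tg animals, 88 sets of values (library measures, list sums and the genes printed above other than Nppa and Myh7, on a log2 scale except the mitochondrial share) were searched for an end value whose gap to the next animal exceeded Dixon's critical share of the whole range for 8 samples. There were 15 such sets, where about 1 in 20 would be flagged by chance, or 4.40. Genes of 1 animal are not independent, and genes were chosen partly for slopes that an end animal can set. In 7 of the 15 the animal was replicate 1, in 7 replicate 7 and in 1 another.

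Replicate 1 was apart at the high end for the heat shock sum (gap over range 0.584), Xirp1 (0.610), Ell2 (0.535), Zfp568 (0.584), Dnajb4 (0.667) and Ccn1 (0.532), and at the low end for Myl4 (0.562). Replicate 7 was apart at the high end for the Schwann cell sum (0.558), Kif5a (0.587), Cyb561d1 (0.611), Dpysl3 (0.640), Cspg4 (0.575) and Cdcp3 (0.543), and at the low end for Akt1 (0.543). Replicate 3 was apart at the low end for the beta-adrenergic signalling sum (0.649), where the sum was 1919.8 CPM and the other 7 animals spanned 2272 to 2489.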

How the results depend on the processing

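Genes with a mean count under 10 were outside the test. For the index fit, 0 genes were called under RLE, upper-quartile, library-size and 8-library TMM scaling, both other filters, the smaller pseudocount, Nppa alone, z-scores, the second index, both covariates, voom, both permutation tests and an adjusted p under 0.1. DESeq2 called 9 (Masp1, Fxyd6, Adamts1, Nt5e, Ell2, Akt1, Pvr, Atf3 and the pseudogene Tpt1-ps3). Myh7 alone called 1 and leaving out replicates 7 and 1 called 1, in each case Tpt1-ps3, which had 151 counts in replicate 3 and 0 in 7 animals. Leaving out single animals gave 0 to 2 genes, the 2 being Tpt1-ps3 and Otud1 without replicate 7. The interaction gave 5 genes in DESeq2 (Mafk, Adamts1, Nt5e, Atp5g2 and Zfp568, all with the lower slope in B3AR-Tg) and 0 to 21 when replicate numbers were left out in turn, 21 without replicate 7 of both genotypes, 19 of them with the lower slope in B3AR-Tg, among them Xirp1, Xirp2, Ccn2 and Flnc. With a replicate block it gave 0 genes (396 at an unadjusted p under 0.05, smallest adjusted p = 0.188). Same-numbered animals of the 2 genotypes correlated between -0.271 and 0.0937 and 0 of 8 best matched its own number, so the numbers do not pair the animals. Genes without overlap numbered 249, and 527 with the 2 sets formed by Myh7 alone and 863 with the 3 highest against the 3 lowest animals; fewer animals leave fewer ways to overlap. For 28 named genes, 693 values under alternatives held 661 with the same direction and side of the threshold, 8 newly past it and 24 with the other sign, none of these called. Counted by gene, 15 of the 28 changed sign under at least 1 alternative and 13 under none.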
